A study of Homo sapiens with 4 samples.

Results

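The glucocorticoid receptor gene NR3C1 and 7 of its well-known target genes were followed in MM.1S cells, an established human multiple myeloma line that is known to respond to glucocorticoids. The 8 genes were taken by symbol (NR3C1, TSC22D3, FKBP5, DUSP1, PER1, KLF9, SGK1 and ZFP36) from a table of 16057 genes, and all 8 had a row and passed the filter on low values. The cells were grown in medium with serum and were kept for 26 h with 350 nM of JG342, which inhibits HSP70 chaperones allosterically, or with DMSO, its solvent. Each treatment had 2 libraries, described as biological duplicates and numbered 1 and 2, from 1 cell line. The labels name no glucocorticoid in either group. Levels were taken as TPM, a unit inferred from the library totals. It corrects for the length of each transcript, so that levels can be compared between genes if the inference holds.

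The glucocorticoid receptor is a transcription factor that waits in the cytosol in a complex with chaperones. HSP70 and HSP90 act on it in turn, with the co-chaperones HOP and p23, to hold it in the form that binds hormone. After binding it moves into the nucleus and attaches to glucocorticoid response elements, where it raises transcription of genes such as TSC22D3 and FKBP5 and lowers that of many inflammatory genes. Glucocorticoids kill many lymphoid and plasma cell tumours, and dexamethasone is part of most myeloma treatments.

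The targets did not move together. Of the 7, TSC22D3 and KLF9 rose after JG342, FKBP5 fell, and ZFP36, SGK1, DUSP1 and PER1 did not pass the test. NR3C1 itself was higher in both JG342 libraries but did not pass. Calls are at a limma adjusted p under 0.05 (Benjamini-Hochberg over all fitted genes), and 3 of the 8 genes passed, against 18.4% of the 12042 fitted genes (10.8% as higher and 7.62% as lower). With so few members that share is no result about the group. Values of the 2 treatments did not overlap for 5 of the 8, against 62.1% of fitted genes. For 6 of the 8 the 2 same-numbered pairs had differences of 1 sign, as had 75.5% of fitted genes. The median log2 fold change of the 8 was -0.04, and that of all fitted genes was 0.03; the former was 0.07 without JG342 replicate 2 and -0.12 without JG342 replicate 1, so its sign is not settled. When the fit was blocked on replicate number 5 of the 8 passed, the added 2 being NR3C1 and ZFP36, against 34.9% of fitted genes. The same 5 of 8 passed when medians were made equal as well, against 33.1%.

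**Figure D1:**
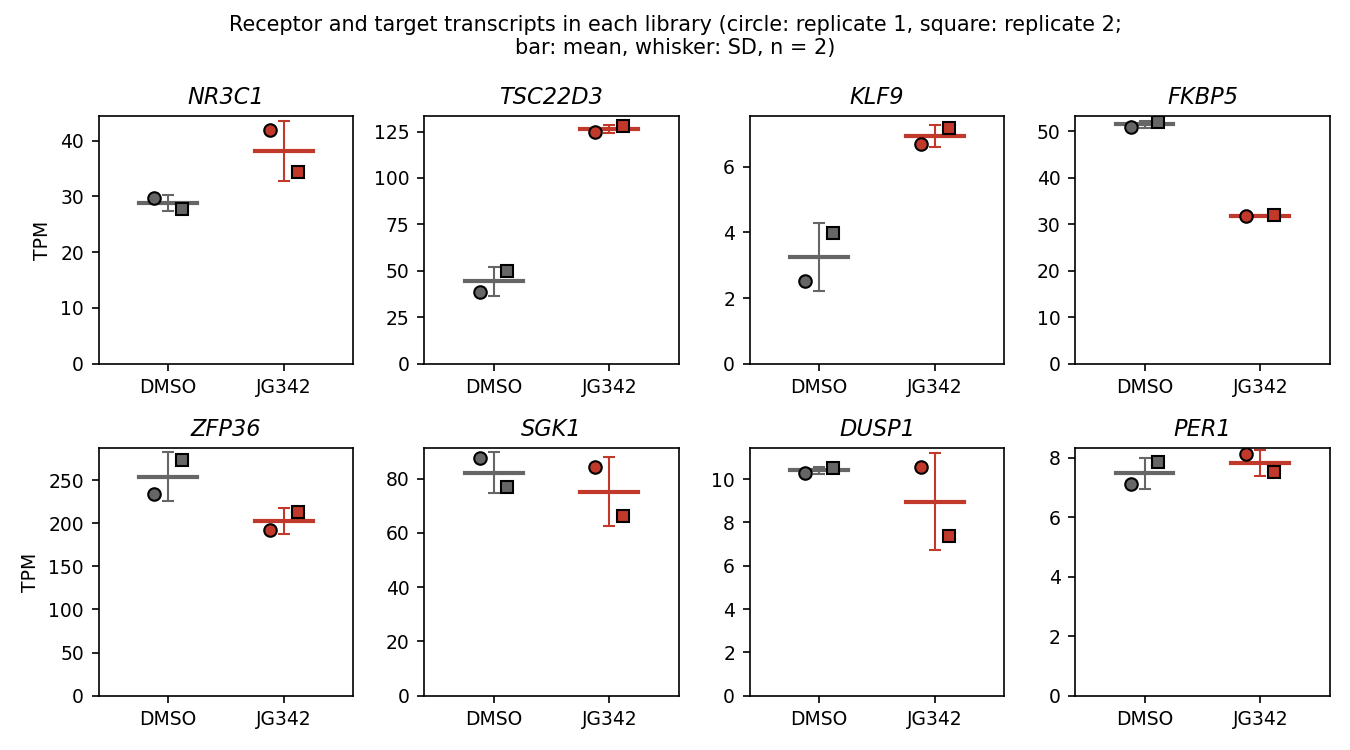
Deposited values, taken as TPM, of each of the 8 genes in the DMSO libraries (grey) and the JG342 libraries (red). The vertical axis starts at 0 and has its own scale in each panel. Circles mark replicate 1, squares replicate 2, bars the means and whiskers the SD (n = 2). TSC22D3 stands at 125 and 128 TPM with JG342 against 38.7 and 49.9 TPM with DMSO, whereas FKBP5 stands at 31.8 and 32.0 TPM against 51.0 and 52.0 TPM.

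NR3C1 (NM_000176), which encodes the receptor, was at 29.8 and 27.8 TPM in the DMSO libraries and at 42.0 and 34.4 TPM in the JG342 libraries. Both JG342 libraries lay above both DMSO libraries, and JG342 replicate 1 was the highest. The log2 fold change, on the scale of log2(TPM + 1) used throughout, was 0.39 ± 0.13 SE, with a 95% interval of 0.10 to 0.69 that is not adjusted for the number of genes. Its adjusted p in limma was 0.0667, so it did not pass. Blocked on replicate number it did (limma adjusted p 0.00351, or 0.0229 with medians made equal), and also without JG342 replicate 2, at 0.53 (limma adjusted p 0.0324). Without JG342 replicate 1 the change was 0.25 (limma adjusted p 0.290), so its size rests on that library. The table has 1 value for NR3C1, and whether it sums all transcripts or belongs to the accession alone is not given in the sources used here, so it says nothing of the balance between the hormone-binding alpha form and the shorter beta form.

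TSC22D3 (NM_001015881) encodes GILZ, a leucine zipper protein that binds NF-kB and AP-1 and carries part of the anti-inflammatory action of glucocorticoids. As for NR3C1, whether the value sums all transcripts or belongs to the accession alone is not given, so it does not tell forms of the protein apart. TSC22D3 was at 38.7 and 49.9 TPM with DMSO and at 125 and 128 TPM with JG342, so the treatments were far apart and the JG342 libraries nearly equal. It rose by a log2 fold change of 1.50 ± 0.13 SE, or 2.83-fold (limma adjusted p 0.000227), with an interval of 1.21 to 1.79. The change was 1.66 in the replicate 1 pair and 1.34 in the replicate 2 pair. It passed under each of the 11 alternatives, with adjusted p up to 0.0259. By the size of its p it stood at place 57 among the fitted genes. About 1.49% of its annotated exon bases lie opposite the exons of NCBP2L, and whether the counting used strand is not given in the sources used here. PER1 shares about 1.54% of its exon bases with AC129492.3 and MIR6883 on the same strand, and the other members share none.

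KLF9 (NM_001206), a zinc finger transcription factor that both glucocorticoid and thyroid hormone induce, was the lowest of the 8, at 2.51 and 3.98 TPM with DMSO and 6.71 and 7.19 TPM with JG342. The DMSO libraries differed from each other, and both lay below the JG342 libraries. It rose by 0.93 ± 0.20 SE, or 1.90-fold (limma adjusted p 0.0151), with an interval of 0.47 to 1.38. The call rests on the lower DMSO library: without DMSO replicate 1 the log2 fold change was 0.67 with an adjusted p of 0.0912. It was also lost when genes of all levels were fitted (adjusted p 0.0824).

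FKBP5 (NM_001145775) encodes FKBP51, an immunophilin that joins the receptor's HSP90 complex and lowers its affinity for hormone, so that its induction forms a negative feedback loop. It was at 51.0 and 52.0 TPM with DMSO and at 31.8 and 32.0 TPM with JG342. The libraries of each treatment were almost identical and the treatments did not overlap. FKBP5 fell by 0.68 ± 0.11 SE in log2 units (limma adjusted p 0.00402), with an interval of -0.91 to -0.44. The change was -0.67 and -0.68 in the pairs, and it passed under each of the 11 alternatives. Its interval lies wholly below that of TSC22D3, although both genes are classic readouts of receptor activity. The difference between the genes was not tested. FKBP5 also belongs to the folding machinery, whose other genes are described further on.

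The start regions of the 3 genes that passed are shown because the receptor is known to act through short elements in DNA. RefSeq windows of GRCh38.p14, reaching from 250 bases before a gene start to 50 bases from the start on, were found for all 8 genes, 20 windows in all, since several genes have more than one start. Each line below gives the window nearest to the start of the accession in the table, 5′ to 3′ on the strand of the gene, which is the minus strand for all 3: chrX:107716459-107716758 for TSC22D3, chr9:70414608-70414907 for KLF9 and chr6:35728534-35728833 for FKBP5. Capitals mark matches on either strand to the motifs searched, and the TSC22D3 window has none.
TSC22D3: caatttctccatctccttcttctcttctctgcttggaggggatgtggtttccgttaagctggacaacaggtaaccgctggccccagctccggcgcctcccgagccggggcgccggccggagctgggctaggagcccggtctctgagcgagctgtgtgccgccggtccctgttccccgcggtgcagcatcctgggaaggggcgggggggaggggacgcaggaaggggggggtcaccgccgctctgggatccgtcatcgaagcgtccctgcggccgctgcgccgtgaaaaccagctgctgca
KLF9: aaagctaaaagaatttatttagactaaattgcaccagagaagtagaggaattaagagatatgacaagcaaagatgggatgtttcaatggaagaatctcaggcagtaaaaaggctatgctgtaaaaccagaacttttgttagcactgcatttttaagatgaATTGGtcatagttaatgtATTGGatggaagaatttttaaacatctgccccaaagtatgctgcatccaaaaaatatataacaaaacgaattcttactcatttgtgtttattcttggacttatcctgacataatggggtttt
FKBP5: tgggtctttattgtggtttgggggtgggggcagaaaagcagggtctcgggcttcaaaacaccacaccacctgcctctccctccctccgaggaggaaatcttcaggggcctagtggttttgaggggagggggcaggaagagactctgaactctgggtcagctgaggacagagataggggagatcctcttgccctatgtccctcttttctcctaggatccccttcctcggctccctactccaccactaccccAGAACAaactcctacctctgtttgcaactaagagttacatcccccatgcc

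The motifs were the full palindromic glucocorticoid response element (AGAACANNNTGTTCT), the hexamer of which it is made (AGAACA, so that every palindrome also counts as a hexamer match), the cAMP response element (TGACGTCA), the E-box (CACGTG) and the CCAAT box (CCAAT), each on both strands. The full palindrome was in none of the 20 windows and in 0.00285% of the 35116 windows of all genes. The hexamer was in 2 of the 20, while 14.8% of all windows hold it. The 2 were 1 of 3 SGK1 windows and the printed FKBP5 window, where it begins at the start itself. KLF9 had CCAAT boxes, read as ATTGG, 90 and 72 bases before the start, and 34.6% of all windows hold one. DUSP1 had a cAMP response element 125 bases before its start (1.85% of all windows) and an E-box 108 bases before it. PER1 had an E-box 173 bases before its start (7.26% of all windows). The FKBP5 window that is not printed had an E-box 227 bases and a CCAAT box 151 bases before its start. That start lies 39668 bases from the start of the accession. Which starts these cells use was not measured. CCAAT boxes also lay in windows of NR3C1 and PER1 and in a TSC22D3 window that is not printed. Elements outside these windows were not searched, and a match is a match of letters only.

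ZFP36 (NM_003407) encodes tristetraprolin, which binds AU-rich messages of inflammatory genes and speeds their decay. It was the most abundant of the 8, at 234 and 274 TPM with DMSO and 192 and 213 TPM with JG342. Both JG342 libraries lay below both DMSO libraries. The log2 fold change of -0.32 ± 0.11 SE did not pass (limma adjusted p 0.0696; interval -0.57 to -0.08). Blocked on replicate number it passed (limma adjusted p 0.000701, or 0.00572 with medians made equal). Without DMSO replicate 2 the change was -0.21 (limma adjusted p 0.390).

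SGK1 (NM_001143676), a kinase that regulates ion transport and cell survival, was at 87.6 and 76.8 TPM with DMSO and 84.2 and 66.2 TPM with JG342. The treatments overlapped, and in each the library numbered 1 was the higher. Its log2 fold change was -0.13 ± 0.13 SE (limma adjusted p 0.521; interval -0.44 to 0.17). DUSP1 (NM_004417), a phosphatase that switches off the kinases p38 and JNK, was at 10.3 and 10.5 TPM with DMSO and 10.5 and 7.37 TPM with JG342. Its lower value came from JG342 replicate 2 alone, and the log2 fold change was -0.22 ± 0.18 SE (limma adjusted p 0.429; interval -0.62 to 0.19). PER1 (NM_002616), a repressor in the circadian clock, was at 7.12 and 7.85 TPM with DMSO and 8.13 and 7.52 TPM with JG342, and these values overlapped. Its log2 fold change was 0.06 ± 0.15 SE (limma adjusted p 0.829; interval -0.29 to 0.40). For these 3 genes the intervals exclude a rise of the size seen for TSC22D3. For DUSP1 and SGK1 the sign turned without JG342 replicate 2, and for PER1 it turned after scaling to equal medians.

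**Figure D2:**
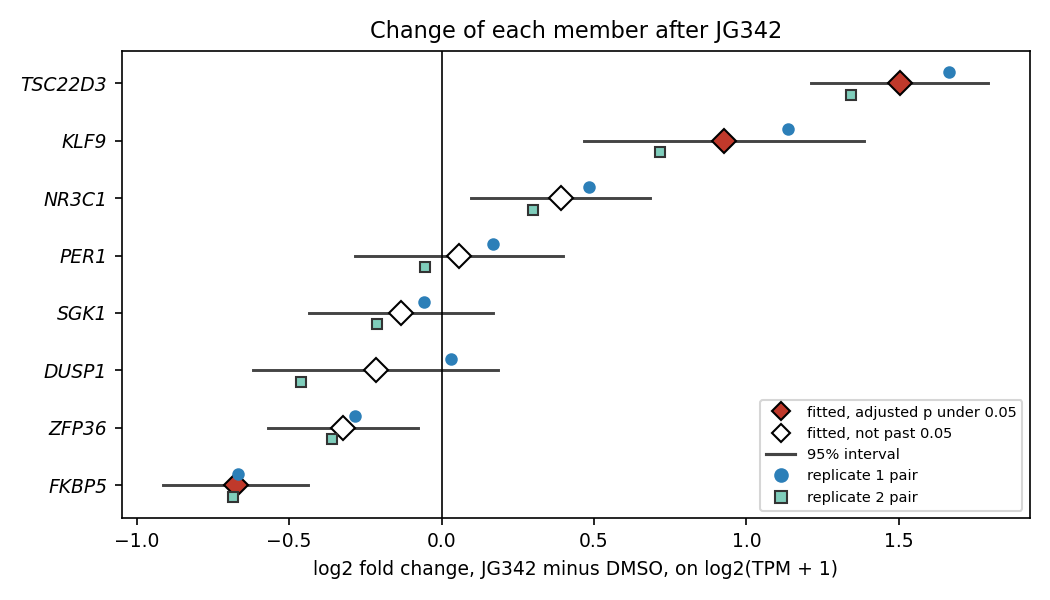
Fitted log2 fold change of each of the 8 genes (diamonds, red where the adjusted p is under 0.05) with its 95% interval (line), and the change in the replicate 1 pair (circles) and the replicate 2 pair (squares). The horizontal axis is JG342 minus DMSO on log2(TPM + 1), and the genes spread from -0.68 for FKBP5 to 1.50 for TSC22D3 with PER1 at 0.06.

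In DMSO the levels ran from ZFP36 through SGK1, FKBP5, TSC22D3, NR3C1, DUSP1 and PER1 down to KLF9, and no neighbours in that order overlapped between their 2 libraries. With JG342, TSC22D3 stood second, above SGK1, and NR3C1 stood above FKBP5. DUSP1 and PER1 overlapped there, at 7.37 to 10.5 and 7.52 to 8.13 TPM.

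Further genes that glucocorticoids are known to induce in various cells were also divided. Of 42 listed, 39 were in the table and 30 passed the filter on low values. Of these 30, 8 rose, 3 fell and 19 did not pass. The 11 calls are 36.7% of the 30, against 18.4% of all fitted genes (34.9% when blocked on replicate number). The list was chosen with earlier results of these data known, so the share is no test of it. The median log2 fold change of the list was 0.13, beside 0.03 for all fitted genes. That median was 0.06 without JG342 replicate 1, 0.21 without JG342 replicate 2, and 0.06 and 0.03 after scaling to equal medians and quantile normalization, where that of all genes was -0.03. After scaling to equal medians 5 rose and 3 fell. The largest rise was that of CEBPB, a bZIP transcription factor, from 16.9 and 31.3 TPM to 147 and 170 TPM (2.72 ± 0.23 SE, limma adjusted p 0.000223). STOM, the membrane protein stomatin, rose from 20.9 and 17.5 TPM to 74.8 and 67.9 TPM (1.84 ± 0.13 SE, limma adjusted p 6.1e-05). The largest falls were those of CXCR4, the receptor that holds plasma cells in the bone marrow, from 38.8 and 36.0 TPM to 22.2 and 22.1 TPM (-0.73 ± 0.11 SE, limma adjusted p 0.00406), and of TNFAIP3, a deubiquitinase that restrains NF-kB, from 123 and 113 TPM to 85.5 and 71.0 TPM (-0.59 ± 0.12 SE, limma adjusted p 0.0102). TNFAIP3 did not pass without DMSO replicate 1 (limma adjusted p 0.0678). The count of 11 became 17 when blocked on replicate number. Without DMSO replicate 1, and without DMSO replicate 2, the median of the list was 0.12. Fewer genes of the list passed in those fits, and so did fewer genes of the whole table.

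Among the other risers of that list were DDIT4, which restrains mTORC1, BTG1, an antiproliferative factor linked to the glucocorticoid response of lymphoid cells, and KLF15, a relative of KLF9 that acts with the receptor on metabolic genes. DDIT4 went from 24.7 and 38.3 TPM to 87.2 and 135 TPM (1.78 ± 0.23 SE, limma adjusted p 0.00181). BTG1 went from 73.4 and 77.8 TPM to 134 and 137 TPM (0.83 ± 0.10 SE, limma adjusted p 0.00102). KLF15 went from 17.1 and 9.27 TPM to 29.4 and 22.1 TPM (0.96 ± 0.25 SE, limma adjusted p 0.0287), and did not pass after scaling to equal medians (0.89), nor without DMSO replicate 2 (0.55) or JG342 replicate 1 (0.76). CEBPB and DDIT4 are also known targets of ATF4, the factor of the integrated stress response. DDIT4, BTG1 and KLF15 were chosen after their values were seen. So were, in what follows, FKBP4, PTGES3, STIP1, the NCOA genes, the TSC22D relatives, DUSP5, DUSP7, DUSP16, ZFP36L2, FKBP1A, FKBP2, FKBP3 and FKBP8.

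Genes that glucocorticoids are known to repress were mostly below the filter in these cells. Of 24 listed, 19 were in the table and 8 passed the filter on low values, with a median log2 fold change of 0.41. MYC, the growth-promoting transcription factor, fell from 285 and 291 TPM to 181 and 182 TPM (-0.66 ± 0.09 SE, limma adjusted p 0.00206). CCL3, a chemokine that myeloma cells secrete, rose from 4210 and 2718 TPM to 7116 and 5035 TPM (0.82 ± 0.21 SE, limma adjusted p 0.0285). It shares sequence with near-identical CCL3L genes, so its reads may be split, and it did not pass after scaling to equal medians (limma adjusted p 0.0763), nor without DMSO replicate 2 or JG342 replicate 1 (0.51 and 0.57). The other 6 did not pass. The 2 calls are 25% of the 8, against 18.4% of all fitted genes (34.9% when blocked on replicate number). With so few genes that share is no result about the list. The count of 2 became 7 when blocked on replicate number. The median of the list was 0.38 without DMSO replicate 2 and 0.39 without JG342 replicate 2.

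The chaperones and co-chaperones that fold the receptor were largely lower after JG342. All 22 listed genes were fitted, and 13 fell, 1 rose and 8 did not pass, with a median log2 fold change of -0.42. The 14 calls are 63.6% of the 22, against 18.4% of all fitted genes. This list, too, was chosen with those earlier results known, so the share is no test of it. With a variance prior that ignores the expression level, 7 of the 22 passed in limma, and 1508 of all 12042 fitted genes. The lowest log2 fold change was that of HSP90AA1, the inducible cytosolic HSP90, at -0.78 ± 0.09 SE (limma adjusted p 0.00123). HSP90AA1 has close pseudogenes. CHORDC1, an HSP90 co-chaperone, fell from 49.8 and 37.0 TPM to 28.7 and 22.9 TPM (-0.72 ± 0.16 SE, limma adjusted p 0.0182), and it did not pass without DMSO replicate 1 (-0.51) or JG342 replicate 2 (-0.56). FKBP4, which encodes FKBP52, the immunophilin that competes with the FKBP5 product in the receptor complex and favours hormone binding, fell from 151 and 152 TPM to 108 and 105 TPM. Its change of -0.50 ± 0.09 SE (limma adjusted p 0.00782; 0.0603 without DMSO replicate 2) had the same sign as that of FKBP5. The p23 gene PTGES3 and the HOP gene STIP1 were also among those that fell. HDAC6, a deacetylase of HSP90, rose from 19.4 and 20.7 TPM to 29.7 and 31.0 TPM (0.58 ± 0.12 SE, limma adjusted p 0.0115), and did not pass without either DMSO library (0.53 and 0.62). The median of the list was -0.44 without DMSO replicate 1 and -0.42 without DMSO replicate 2. Fewer folding genes passed in those fits, and so did fewer genes of the whole table.

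**Figure D3:**
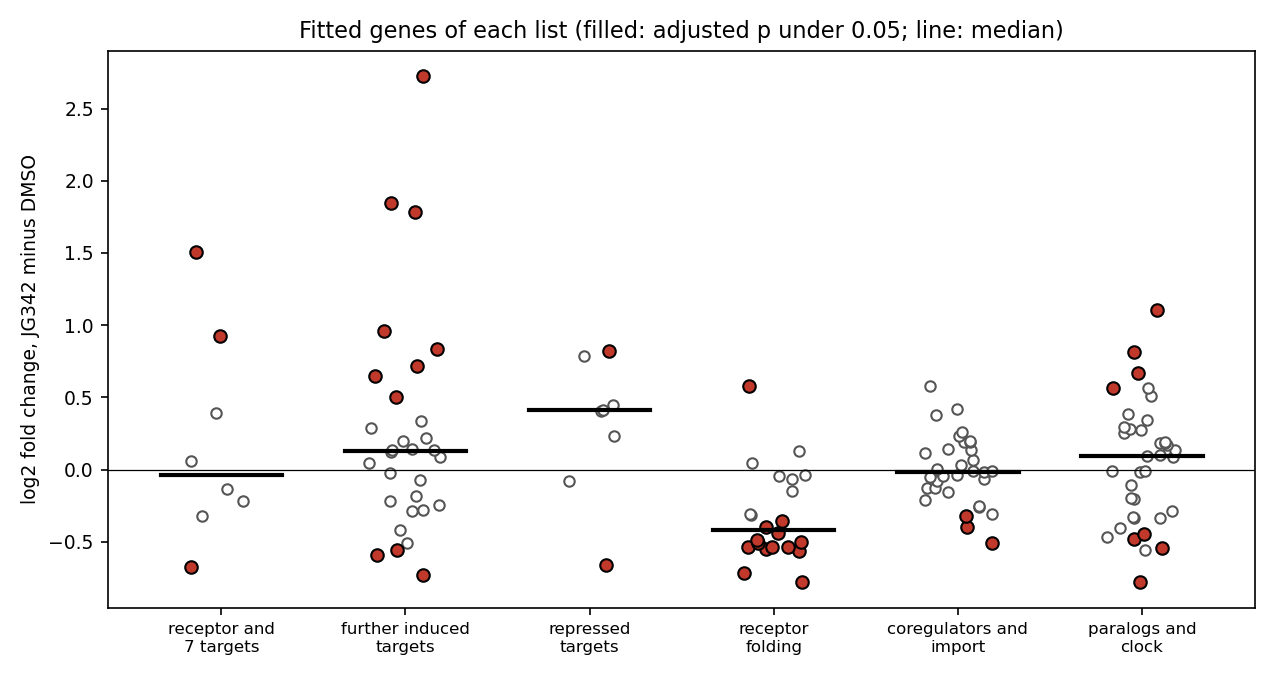
Log2 fold change (vertical axis, JG342 minus DMSO) of every fitted gene in 6 lists, with filled points for an adjusted p under 0.05 and a line at the median. Receptor folding genes lie mostly below 0 with a median of -0.42, and the receptor with its 7 targets is spread on both sides of 0.

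Coactivators, corepressors and nuclear import factors of the receptor were more even. All 32 were fitted, 3 fell, none rose and 29 did not pass, with a median of -0.01 (0.02 without DMSO replicate 2). The 3 calls are 9.38% of the 32, against 18.4% of all fitted genes. Among the 3 were CBX3, a heterochromatin protein, from 285 and 320 TPM to 196 and 230 TPM (-0.51 ± 0.11 SE, limma adjusted p 0.0145), and the importin KPNB1, from 229 and 235 TPM to 176 and 174 TPM (-0.40 ± 0.09 SE, limma adjusted p 0.0160). The p160 coactivators NCOA1, NCOA2 and NCOA3 did not pass, with log2 fold changes of 0.42, 0.19 and 0.38. CBX3 did not pass without DMSO replicate 2 or JG342 replicate 1 (-0.42 and -0.39), nor KPNB1 without either DMSO library (-0.42 and -0.38). Blocked on replicate number, 9 of the 32 passed, 3 higher and 6 lower, against 34.9% of all fitted genes. With a variance prior that ignores the expression level the count was 0 in limma, and it was 1508 for all fitted genes. Without DMSO replicate 1 the median of the list was -0.04.

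Of the other steroid receptor and hormone-handling genes, 5 were fitted, and H6PD alone passed (median 0.28). That is 20% of the 5, near the share of 18.4% of all fitted genes. H6PD supplies the cofactor with which HSD11B1 turns inactive cortisone into cortisol, and it rose from 6.35 and 4.87 TPM to 9.77 and 10.3 TPM (0.75 ± 0.17 SE, limma adjusted p 0.0162), although not without DMSO replicate 2 (0.59). HSD11B1 itself was at 1.04 and 0.30 TPM with DMSO and 2.06 and 1.13 TPM with JG342, and its log2 fold change of 0.65 ± 0.29 SE did not pass (limma adjusted p 0.153, 0.0150 when blocked on replicate number and 0.0594 with medians made equal as well), and it was 0.32 without DMSO replicate 2. HSD11B2, which inactivates cortisol, was at 1.18 to 1.57 TPM in the 4 libraries. The mineralocorticoid receptor NR3C2, the closest relative of NR3C1, was at 2.96 and 4.04 TPM with DMSO and 3.73 and 3.29 TPM with JG342, a difference of 0.01 ± 0.19 SE (limma adjusted p 0.975). ESR1 was at 1.27 to 2.38 TPM and did not pass. PGR, ESR2 and the drug efflux pump ABCB1 were under the filter, and NR3C1 was the most abundant in every library of the steroid receptors named here.

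Paralogs of the targets and their clock partners were divided. Of 43 listed paralogs and clock genes, 41 were in the table and 37 were fitted, with 4 rising, 4 falling and 29 not passing, and a median of 0.09 that was 0.02 after scaling to equal medians and -0.01 after quantile normalization. The 8 calls are 21.6% of the 37, near the share of all fitted genes. After scaling to equal medians 4 rose and 9 fell. TSC22D1, TSC22D2 and TSC22D4 did not pass, at log2 fold changes of 0.19, -0.01 and -0.01, beside the rise of TSC22D3 by 1.50. ZFP36L1, which like ZFP36 promotes decay of AU-rich messages, rose from 19.0 and 23.0 TPM to 34.1 and 41.4 TPM (0.82 ± 0.14 SE, limma adjusted p 0.00659), while ZFP36 was lower. DUSP8, a phosphatase of the JNK and p38 kinases, rose from 2.54 and 2.19 TPM to 7.64 and 5.05 TPM (1.11 ± 0.21 SE, limma adjusted p 0.00915). DUSP16 also rose, by 0.67 (limma adjusted p 0.018). DUSP5 and DUSP7 fell, at -0.45 and -0.48 (limma adjusted p 0.014 and 0.029), so the DUSP relatives were divided. The other fitted DUSP relatives did not pass. The Krüppel-like factors KLF10, a TGF-beta early response gene, and KLF2, a quiescence factor of lymphocytes, fell by 0.78 ± 0.17 SE and 0.54 ± 0.12 SE (limma adjusted p 0.0138 and 0.0179), whereas KLF9 rose, as did KLF15. The other fitted KLF relatives of the list did not pass and had both signs. ZFP36L2, FKBP1A and FKBP3 did not pass, at -0.19, -0.29 and -0.33, the sign seen for ZFP36 and FKBP5. FKBP2 and FKBP8 did not pass either and had the other sign, at 0.27 and 0.25, so the FKBP relatives were divided. The median of the list was 0.07 without DMSO replicate 1 and 0.12 without DMSO replicate 2. KLF10 and KLF2 were lost in both of these fits. KLF2 was also lost without JG342 replicate 1 (-0.40), and DUSP8 without DMSO replicate 2 (1.03). The count of calls was 18 of 37 when blocked on replicate number, against 34.9% of all fitted genes.

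**Figure D4:**
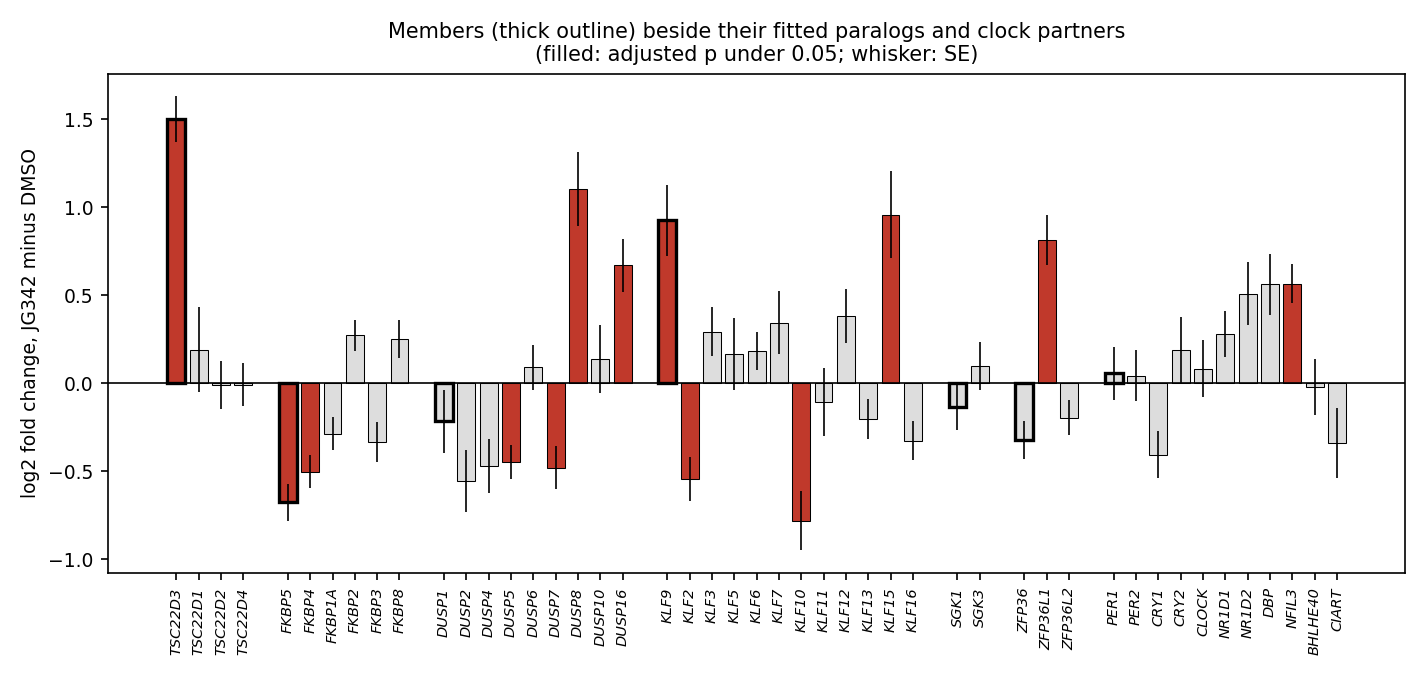
Log2 fold change (vertical axis, JG342 minus DMSO, whiskers for the SE) of the 7 targets (thick outlines) beside fitted paralogs and clock partners, grouped by family, with filled bars for an adjusted p under 0.05. TSC22D3 at 1.50 stands beside 3 relatives between -0.01 and 0.19. KLF9 at 0.93 stands beside KLF15 at 0.96, KLF10 at -0.78 and KLF2 at -0.54, and the other KLF relatives did not pass.

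The 3 genes whose pattern over the 4 libraries was nearest to that of NR3C1 were ROBO1, ZBED6CL and LACTB, by Euclidean distance between log2 values centred on each gene's mean (0.0152, 0.0231 and 0.0257). With 98 genes nearer than 0.1 over only 4 libraries, this describes the shape of the values and no more. Each of the 3 was higher in both JG342 libraries and highest in JG342 replicate 1, as NR3C1 was.

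The libraries matched their labelled cell type. All 8 plasma cell markers were detected in every library, from 22.0 to 1566 TPM. Of the 8 markers of other cell types, 6 were in the table, their summed level was 45.7 to 57.2 TPM without separating the treatments, and LYZ made up most of it, at 37.0 to 46.2 TPM. TPM totals were between 994463 and 994718, and the number of genes listed at 0 was between 1118 and 1418. Pearson's r of log2 values across fitted genes, which are not independent replicates, was 0.992 and 0.990 within treatments and 0.972 to 0.975 between them. With 2 libraries a treatment, p-values rest only on the spread between these libraries. For each gene that spread is largely taken from genes of like level (6.89 prior against 2 residual degrees of freedom).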

How the data were processed

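RNA from 4 MM.1S cultures (2 with DMSO, 2 with JG342) had been sequenced on a BGISEQ-500, per the labels' protocols. HISAT2 2.0.4, Bowtie2 2.2.5 and RSEM 1.2.12 are named, without roles, per the submitters' processing notes; build, annotation and filters are not given in the sources used here. The deposited values were taken as TPM, since the 4 library totals all lie between 994463 and 994718. TPM keeps no read depth, so no counting interval is given; the number of libraries sets the precision. On log2(TPM + 1), 12042 genes averaging 1 TPM or more were fitted with treatment as the only term in limma 3.58.1 (R 4.3.3; lmFit, eBayes with trend, two-sided, Benjamini-Hochberg over all fitted genes, threshold 0.05); 4015 genes were left out. Fold changes on this scale understate those of low genes. Residual degrees of freedom were 2, prior ones 6.89.

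Another fit was blocked on replicate number (replicate block). Same-numbered samples share a prefix in their descriptions in the labels, which is where the pairing comes from, and their deviations from the group means had a Pearson r of 0.275 over genes. The block fit had 1 residual degree of freedom and an infinite prior, so its p-values rest on the variance expected at a gene's level; with scaling to equal medians the prior was 7.49.

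The members and lists were chosen with earlier results of these data known. Named genes are the 8 members, the listed steroid receptor and hormone-handling genes (1 is not reported here), in each other list the 2 largest rises and 2 largest falls past the threshold, and the 3 genes nearest to NR3C1; every other gene given with a value, in the report or after it, was chosen after its values were seen. Alternatives changed the pseudocount, filter, scaling, variance prior or block, or left out each library in turn. The fit was tested on simulated data for this comparison (11962 genes fitted). It recovered 34.7% of 49 genes changed by 0.5 on the log2 scale and 100% of 49 changed by 1. Of the 172 calls in the simulation 5.23% were false. Promoter windows came from RefSeq (GRCh38.p14); all 8 members matched by symbol. Exon overlaps and transcript starts came from GENCODE release 29.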

Additional observations from a re-analysis of the deposited data

How the results depend on the processing

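Groups of 2 libraries limit every call. In the simulation 34.7% of changes of 0.5 were recovered, but it gave only 172 calls, against 2221 in the data. The Benjamini-Hochberg cutoff depends on the number of calls, so that share does not give the recovery in the data, which was not measured. TSC22D3 and FKBP5 kept direction and call under all 11 alternatives. Without the filter on low values the counts past the threshold were 828 of all genes, 5 further induced targets, 1 repressed target, 7 folding genes, 1 coregulator and 0 paralogs or clock genes (41 tested). With the replicate block they were 4207 genes, 5 members, 17 induced, 7 repressed, 9 coregulators and 18 paralogs or clock genes; with the replicate block and scaling to equal medians they were 3985, 5, 17, 4, 10 and 17, and the block changed no folding count. Scaling to equal medians alone, and quantile normalization, each gave 1 repressed target and 13 paralogs or clock genes; all calls split into 966 higher and 1200 lower with the former and 1016 and 984 with the latter, against 1304 and 917. A variance prior without trend gave 1 repressed target, 7 folding genes and 0 coregulators. Leaving out each library in turn gave 767 to 1825 genes, 2 to 4 members, 6 to 10 induced, 1 to 4 repressed, 3 to 11 folding, 0 to 3 coregulators and 1 to 7 paralogs or clock genes; such fits have fewer samples.

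Signs turned for 4 of the named genes, none of them past the threshold: PER1 was at -0.0036 with equal medians, with or without the block, at -0.053 with quantile normalization and between -0.0049 and 0.12 when each library was left out; the same ranges were -0.45 to 0.016 for DUSP1 and -0.31 to 0.038 for SGK1, both positive without JG342 replicate 2. NR3C2 was at -0.041 with equal medians, with or without the block, at -0.11 with quantile normalization, and between -0.16 and 0.19 when each library was left out. Of the 352 single-gene alternatives for 32 named genes, 292 kept direction and call, 43 lost the call, 6 gained it and 11 changed sign; the cause of these changes was not tested.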

Other observations

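The genes in these paragraphs were chosen after their values were seen. Several classic glucocorticoid-induced genes were close to 0 in all 4 libraries and were not fitted. ZBTB16, a much used marker of glucocorticoid exposure, was listed at 0.03 and 0.05 TPM with DMSO and at 0.08 and 0.05 TPM with JG342. TFCP2L1 and IL7R were at 0.07 TPM or less in each library. GPX3 was at 0.36 and 0.24 TPM with DMSO and listed at 0 in both JG342 libraries. CRISPLD2 was at 0.70 and 0.28 TPM with DMSO and 0.32 and 0.49 TPM with JG342. Among the repressed genes, IL6, the growth factor of myeloma cells, was at 0.66 and 0.55 TPM with DMSO and 0.19 and 0.62 TPM with JG342, and CSF2 was at 0.56 and 0.28 TPM with DMSO and listed at 0 with JG342.

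The efflux pump gene ABCB1, which can export glucocorticoids, was at 0.34 and 0.25 TPM with DMSO and at 0.51 and 1.43 TPM with JG342, with the highest value in JG342 replicate 2. TXNIP, an induced target that binds thioredoxin, differed more between replicate numbers than between treatments, at 201 and 83.0 TPM with DMSO and 164 and 71.9 TPM with JG342.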
